A study of Caenorhabditis elegans with 6 samples.

Results

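The 5S rRNA genes of Caenorhabditis elegans were examined in small RNA libraries from L3 larvae. The members are the 10 gene copies rrn-4.1 to rrn-4.8, rrn-4.15 and rrn-4.16, taken by locus name from the descriptions in the count tables, out of 45510 genes in all and of 16 annotated 5S copies. The groups were susi-2(ust49), susi-3(ust51) and a control strain, and each gave 1 library from an immunoprecipitation (IP) of NRDE-3 and 1 library of total small RNA. Every strain, the control included, carried eri-1(mg366) and GFP::NRDE-3, and every label gives 15 °C with OP50 bacteria as food, after maintenance at 20 °C. The fusion protein was pulled down through a FLAG tag. The labels do not name the promoter of the fusion gene or the lesions of the mutants, and no library came from an IP without the tagged protein, so RNA bound by NRDE-3 and RNA carried over in the pull-down cannot be told apart. With 1 library per group there is no replicate check and no test, and the 95% intervals below cover counting error only. They may understate even that, since sequenced reads may be PCR copies of fewer molecules.

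As background, 5S rRNA is the small RNA of the large ribosomal subunit that RNA polymerase III transcribes from genes of its own, while the 18S, 5.8S and 26S rRNAs are cut from a precursor made by RNA polymerase I. In this worm most 5S genes lie in a tandem repeat in which they alternate with the genes of the SL1 spliced leader RNA. Ribosomal siRNAs (risiRNAs) are antisense small RNAs made on rRNA by RNA-dependent RNA polymerases, and NRDE-3 is an Argonaute protein that carries such siRNAs into the nucleus. The gene behind susi-2 is known as rrp-8, which encodes an rRNA methyltransferase, and that behind susi-3 as riok-1, the gene of a kinase that acts on the maturing small subunit. The series asks whether faulty rRNA leads to antisense ribosomal siRNA, and the 5S copies bear on the rRNA made outside the precursor.

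Total counts per library ranged from 9122066 to 10755494, so that 1 count was 0.0930 to 0.110 CPM (counts per 1000000 counts of the library). A gene with 0 counts could still make up 2.79e-05% to 3.29e-05% of a library, which is 3 counts. Sense counts on rrp-8 were 31, 51 and 106 in the IP libraries of susi-2, susi-3 and control and 10, 36 and 30 in their total libraries. For riok-1 they were 344, 366 and 427 in the IP libraries and 138, 89 and 94 in the total libraries. Small RNA counts on an mRNA do not show its lesion, so they are no firm check of the genotypes. MicroRNA sense counts were 332520, 398982 and 805616 in the IP libraries of susi-2, susi-3 and control, against 2505935, 2834073 and 2665703 in the total libraries, so both mutant IP libraries held fewer microRNA counts than the control IP. Some 5S ratios change when taken per microRNA sense count, and those values are given where direction or size depends on it.

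The copies fall into 4 sets by strand and place. In the gene order of the RefSeq annotation (assembly WBcel235), which may not be the one behind the tables, rrn-4.1 and rrn-4.5 to rrn-4.8 stand in the array and alternate with SL1 genes, as do the 6 other copies, rrn-4.9 to rrn-4.14. At the edge of the same array stand rrn-4.2 to rrn-4.4, and in the tables the abundant fragments of these 3 copies fall in the antisense column. In the control total library rrn-4.2 had 37 counts in the sense column and 9815 in the antisense column, rrn-4.3 had 36 and 9312, and rrn-4.4 had 22 and 8404. The SL1 gene between rrn-4.3 and rrn-4.4, sls-1.12, was reversed in the same way, with 5 counts in the sense column and 757 in the antisense column. For these 3 copies and sls-1.12 the columns are therefore exchanged below, a reading taken from the counts alone, and "antisense" means antisense to the 5S RNA throughout. Outside the array lie rrn-4.15 and rrn-4.16, neither of them next to another 5S or SL1 gene in that annotation.

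**Figure D1:**
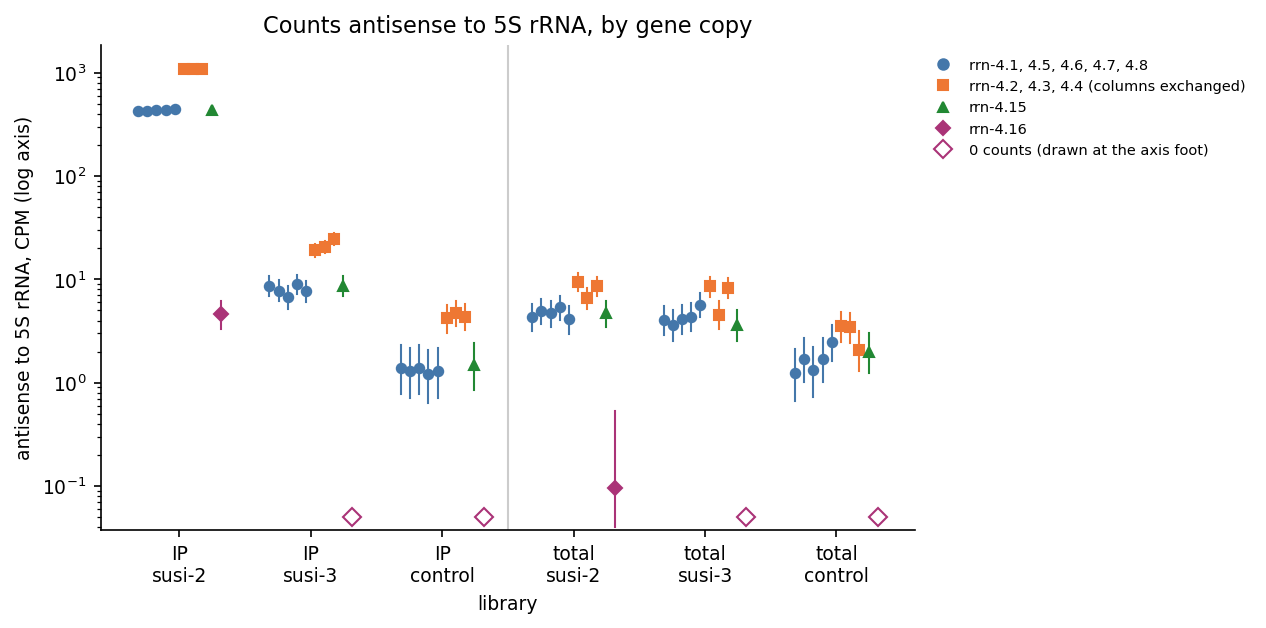
Antisense CPM (log axis) of each of the 10 copies in the 6 libraries, IP libraries on the left, with exact Poisson 95% intervals; hollow symbols at the foot of the axis mark 0 counts of rrn-4.16. All copies are highest in the susi-2 IP, where the 5 array copies and rrn-4.15 lie between 427 and 446 CPM and the 3 copies with exchanged columns between 1079 and 1090 CPM.

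In total small RNA of both mutants the 5S copies carried more antisense counts than in the control, at low levels. Over the 7 copies read on their annotated strand (rrn-4.1, rrn-4.5 to rrn-4.8, rrn-4.15 and rrn-4.16) there were 295 antisense counts in susi-2, 252 in susi-3 and 110 in the control. As shares of the library these were 28.2 CPM (25.0 to 31.6) in susi-2, 25.6 CPM (22.5 to 28.97) in susi-3 and 10.5 CPM (8.60 to 12.6) in the control. The share was 2.69-fold higher in susi-2 (2.16 to 3.38) and 2.45-fold higher in susi-3 (1.95 to 3.09). The 3 copies with exchanged columns gave ratios of 2.73 (2.15 to 3.49) and 2.36 (1.84 to 3.04), from 258 counts in susi-2, 210 in susi-3 and 95 in the control.

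Copy by copy, the total libraries held few antisense counts. There were 45 antisense counts on rrn-4.1 in susi-2 and 40 in susi-3, against 13 in the control. For rrn-4.5 the counts were 52, 36 and 18 in the same order, and for rrn-4.6 they were 49, 41 and 14. Each mutant library was above the control for these copies, and the 95% intervals of all their ratios lay above 1. On rrn-4.7 there were 56, 43 and 18 antisense counts, and on rrn-4.8 there were 43, 56 and 26. The susi-2 ratio of rrn-4.8, 1.66 (0.997 to 2.81), was the only one in that mutant whose interval included 1, rrn-4.16 left aside. Among the 3 copies with exchanged columns, rrn-4.2 had 99 antisense counts in susi-2, 84 in susi-3 and 37 in the control, and rrn-4.4 had 90, 81 and 22. The third of them, rrn-4.3, had 69, 45 and 36, and its susi-3 ratio of 1.34 (0.842 to 2.13) was not separable from 1 at this depth.

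Counted by a fixed size, 6 of the 9 copies with at least 20 antisense counts over the susi-2 and control libraries had a log2 ratio of 1 or more on the log2(CPM + 1) scale, and the others were rrn-4.3, rrn-4.8 and rrn-4.15. Over all genes 3.55% passed the same rule (279 of 7850). In susi-3 it was 4 of 9 copies (rrn-4.1, rrn-4.2, rrn-4.4 and rrn-4.6), against 5.17% of all genes (417 of 8069). The copies may share reads, so such counts of copies are not repeated observations. In the control library rrn-4.1, rrn-4.5, rrn-4.6 and rrn-4.7 had 13 to 18 antisense counts, under the minimum of 20. They entered only with the mutant counts, where they were higher. The median log2 ratio of the 9 copies was 1.21 in susi-2 and 0.99 in susi-3, where the median of all genes tested was -0.53 and -0.47. The pseudocount of 1 CPM is close to the level of single copies in the control (1.24 to 3.52 CPM for these 9), so this scale understates their ratios. TMM scaling was taken on the antisense columns as deposited, so it divides by antisense counts and not by all counts. Those totals were 1837990 in susi-2, 1965566 in susi-3 and 2730401 in the control. With TMM scaling the susi-2 sum ratio was 4.25 and the susi-3 one 3.71. On that scale 9 of 9 copies passed in susi-2 (8.75% of all genes) and 8 of 9 in susi-3 (10.9%).

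Sense fragments of 5S were also higher in total small RNA of both mutants, by less. The 7 copies together had 69302 sense counts in susi-2, 59421 in susi-3 and 37507 in the control, or 0.662% (0.657 to 0.667), 0.604% (0.599 to 0.609) and 0.357% (0.353 to 0.360) of the library. The share was 1.85-fold higher in susi-2 (1.83 to 1.88) and 1.69-fold higher in susi-3 (1.67 to 1.71). Per microRNA sense count these ratios were 1.97 in susi-2 and 1.49 in susi-3. Only rrn-4.3 reached a log2 ratio of 1, at 1.02 in susi-2, so 1 of 9 copies was called, beside 13.3% of all genes, and in susi-3 none of 9, beside 9.16%. The antisense part of all 5S counts differed less than the antisense share. It was 0.424% (0.377 to 0.475) in susi-2, 0.422% (0.372 to 0.478) in susi-3 and 0.292% (0.240 to 0.352) in the control.

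In the IP libraries antisense counts on 5S were higher in both mutants than in the control, and the size differed widely between them. The 7 copies had 23867 antisense counts in susi-2, 460 in susi-3 and 87 in the control, or 2616 CPM (2583 to 2650), 48.4 CPM (44.1 to 53.0) and 8.09 CPM (6.48 to 9.98). The ratio to control was 323 in susi-2 (262 to 404) and 5.98 in susi-3 (4.75 to 7.61). In susi-2 it was 146 with TMM scaling and 665 per microRNA sense count, and in susi-3 it was 10.7 per microRNA sense count. For the 3 copies with exchanged columns the counts were 29669, 612 and 143, and the ratios were 245 (208 to 290) and 4.84 (4.03 to 5.85). All 10 copies passed a log2 ratio of 1 in the susi-2 IP, where 38.0% of all genes did. Of these, rrn-4.16 met the minimum of counts only through its 42 counts in the susi-2 IP, against 0 in the control IP. Its call was thus set by its entry and adds nothing to those of the other copies. In the susi-3 IP 9 of 9 copies passed, beside 8.24% of all genes. There rrn-4.16, with 0 counts in both libraries, did not enter. The median log2 ratio over the copies was 7.55 in susi-2 and 1.95 in susi-3, and that of all genes tested 0.79 and -0.21.

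The 5 array copies held like counts in each IP library, which copies that share reads would do. On rrn-4.1 there were 3897 antisense counts in susi-2 and 82 in susi-3, against 15 in the control, and on rrn-4.5 there were 3911, 74 and 14. The counts on rrn-4.6 were 3971, 64 and 15, and those on rrn-4.7 were 3959, 85 and 13. On rrn-4.8 they were 4072, 73 and 14. Of these 5 array copies the highest was thus 1.04 times the lowest in the susi-2 IP, and their ratios to control ran from 306 (185 to 548) for rrn-4.1 to 359 (210 to 675) for rrn-4.7. In the susi-3 IP their ratios ran from 4.83 (2.72 to 9.12) for rrn-4.6 to 7.40 (4.1 to 14.5) for rrn-4.7, intervals that overlap. The exchanged copies held more counts each, with 9879 in susi-2, 181 in susi-3 and 45 in the control for rrn-4.2, then 9845, 196 and 51 for rrn-4.3, and 9945, 235 and 47 for rrn-4.4.

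Sense fragments summed over the 7 copies were lower in both mutant IP libraries, though not for every copy. They had 12733 sense counts in susi-2, 10812 in susi-3 and 17743 in the control, a ratio of 0.846 in susi-2 (0.827 to 0.866) and 0.689 in susi-3 (0.673 to 0.706). Per microRNA sense count both sums turned to the other side of 1, at 1.74 in susi-2 and 1.23 in susi-3. Among single copies rrn-4.15 was higher in the susi-2 IP, at 1.29 (1.2 to 1.39), and the intervals of rrn-4.2, 1.04 (0.998 to 1.09), and rrn-4.4, 1.00 (0.956 to 1.05), included 1. None of 9 copies was at least 2-fold lower in either mutant, beside 13.7% and 8.30% of all genes. Antisense counts outnumbered sense counts on 5S in the susi-2 IP, at 65.2% of all 5S counts (64.7 to 65.7). The percent was 4.08 in the susi-3 IP (3.72 to 4.46) and 0.488 in the control IP (0.391 to 0.602).

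The spread between copies was as small as counting error on the antisense strand. Over the 11 array copies read on the annotated strand (5 members and 6 others), the SD of the antisense counts was 55.5 in the susi-2 IP around a mean of 3953, whose square root is 62.9, and 3.66 in the control total library around a mean of 18.7, whose square root is 4.33. In all 6 libraries the variance was below the mean, at 0.511 to 0.956 times it. On the sense strand the variance was 2.14 to 53.7 times the mean, with rrn-4.5 the lowest of the 11 in every library (6158 counts in the control total library, where the median was 7098). How reads matching several copies were placed is not given in the sources. Equal counts of near-identical copies therefore say nothing of which copy an siRNA came from. Summed shares and the intervals of sums hold only if each read was counted once. Copies passing the 2-fold rule, above and below, cannot be counted as independent genes. With rrn-4.1 alone, which needs no such sum, the susi-2 ratio to control was 3.48 (1.84 to 7.02) in total small RNA and 306 in the IP libraries. Its susi-3 ratio was 3.29 (1.72 to 6.70) in total small RNA and 6.18 (3.54 to 11.5) in the IP libraries. The 6 array copies outside the named set gave 2.74 (susi-2) and 2.25 (susi-3) in total small RNA. In the IP libraries they gave 285 (susi-2) and 5.21 (susi-3). Each value lay inside the interval of the 7 copies, but copies that share reads would give like ratios, so this is no separate check.

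**Figure D2:**
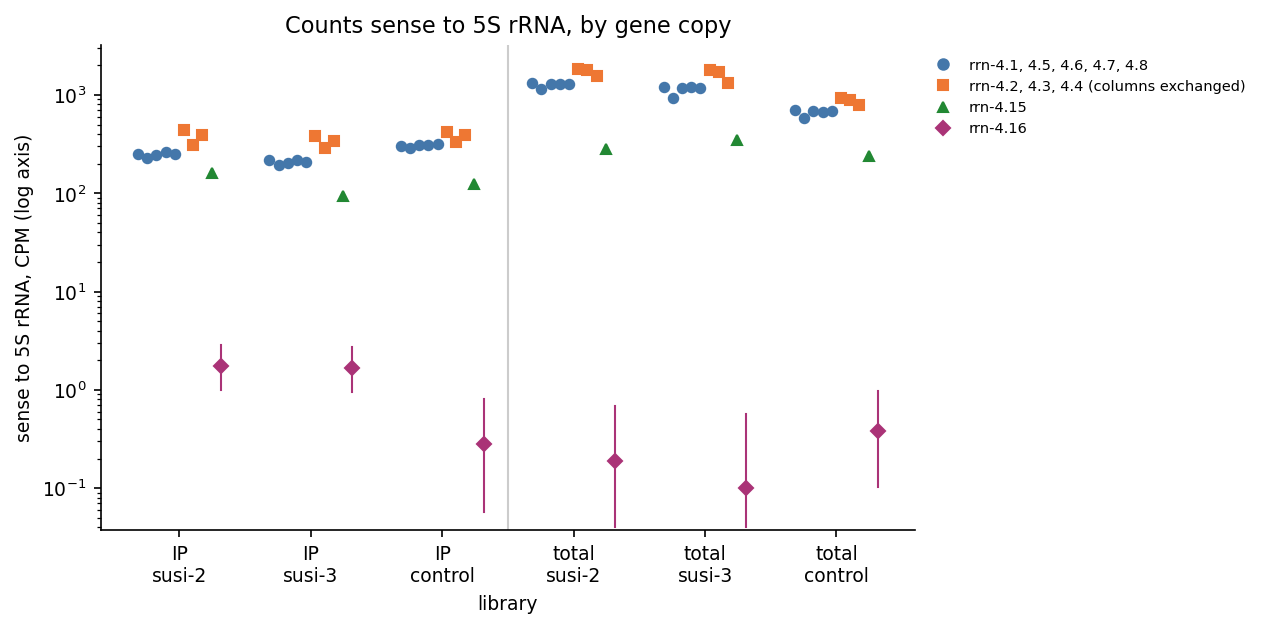
Sense CPM (log axis) of each of the 10 copies in the 6 libraries, with exact Poisson 95% intervals, which are smaller than most symbols. The array copies lie together, rrn-4.15 lies below them in all 6 libraries, and rrn-4.16 stays under 2 CPM.

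The copies outside the array departed from it in different ways. Sense counts on rrn-4.15 were 1471, 896 and 1341 in the IP libraries of susi-2, susi-3 and control and 2949, 3408 and 2534 in the total libraries. This was 0.650, 0.457 and 0.405 times the array median in the IP libraries and 0.217, 0.294 and 0.357 times in the total libraries, below it throughout. Its antisense counts were 4015, 82 and 16 in the IP libraries and 49, 36 and 21 in the total libraries, or 0.878 to 1.17 times the array median, with every interval including 1. The antisense part of its own counts was accordingly the highest of the 7 copies on the annotated strand, leaving aside rrn-4.16, in each library: 73.2% in the susi-2 IP, where the 5 array members had 62.4% to 65.4%, and 0.822% in the control total library, where they had 0.177% to 0.359%. The susi-2 ratio of its sense counts in total small RNA was 1.17 (1.11 to 1.23), against 1.88 to 1.94 for the 5 array members.

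Hardly any reads fell on rrn-4.16. Its sense counts were 16, 16 and 3 in the IP libraries of susi-2, susi-3 and control and 2, 1 and 4 in the total libraries. Antisense counts were 42 in the susi-2 IP and 0 in the IP libraries of susi-3 and control, and 1, 0 and 0 in the total libraries. With 0 taken at 3 counts per library, the susi-2 IP was 16.5-fold higher than the control IP, a value without the counting error of the 42 counts. The copy was thus the lowest of the 10 in every library and still carried more antisense than sense counts in the susi-2 IP.

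The 3 copies with exchanged columns differed from the array by strand and by fraction. In the susi-2 IP their antisense counts were 2.49 to 2.51 times the array median, and their sense counts 1.25 to 1.77 times. In the control IP the antisense counts were 3.00 to 3.40 times and the sense counts 1.08 to 1.36 times the median. The total libraries had antisense values of 1.1 to 2.06 times and sense values of 1.13 to 1.5 times. Sense counts were 3995, 3624 and 4521 on rrn-4.2 in the IP libraries of susi-2, susi-3 and control and 19433, 17454 and 9815 in the total libraries. On rrn-4.3 they were 2827, 2719 and 3580 in the IP libraries and 18786, 16940 and 9312 in the total libraries. On rrn-4.4 they were 3534, 3232 and 4166, against 16329, 13148 and 8404. So rrn-4.3 had fewer sense counts than rrn-4.4 in every IP library and more in every total library, while the highest antisense count of the 3 copies in the susi-2 IP was 1.01 times the lowest.

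**Figure D3:**
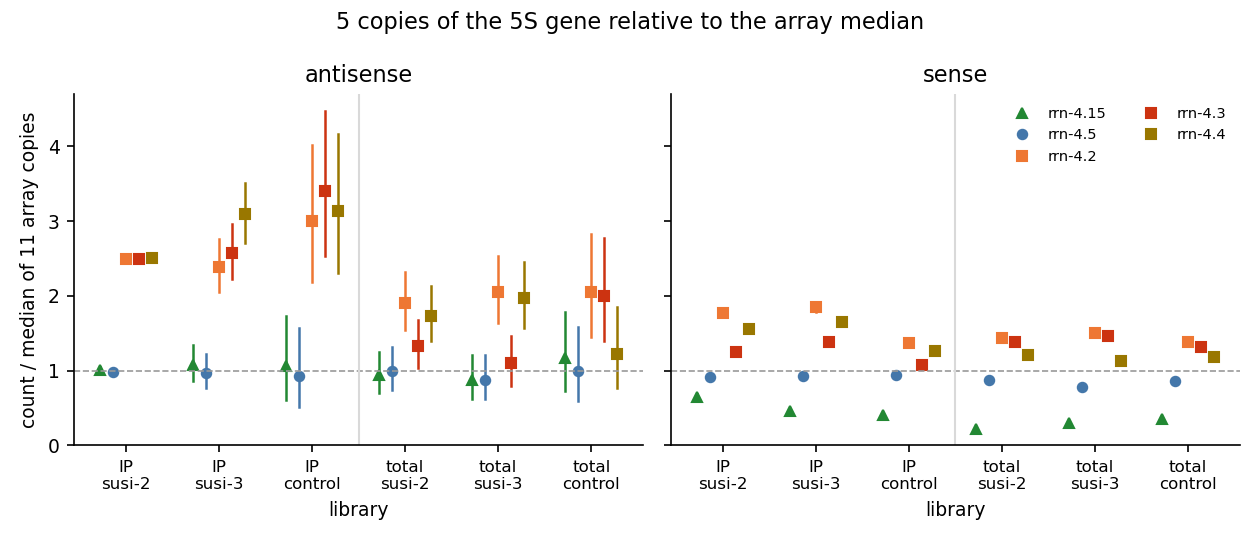
Counts of rrn-4.15, rrn-4.5 and rrn-4.2 to rrn-4.4 divided by the median of the 11 array copies in the same library, antisense on the left and sense on the right, with Poisson 95% intervals of the copy's own count (the dashed line is 1). On the antisense side rrn-4.15 stays at the median (0.878 to 1.17), and on the sense side it lies at 0.217 to 0.650.

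Within a genotype, the IP share of antisense 5S counts can be divided by the share in total small RNA. It was 92.9-fold that of total small RNA in susi-2 (82.8 to 105), 1.89-fold in susi-3 (1.62 to 2.21) and 0.773-fold in the control (0.577 to 1.03), an interval that includes 1. The 3 exchanged copies gave 132 (117 to 149.8), 3.02 (2.58 to 3.55) and 1.47 (1.13 to 1.93). As shares of all counts, sense fragments were lower in the IP of all 3 genotypes, at 0.211 (0.207 to 0.215) in susi-2, 0.188 (0.185 to 0.192) in susi-3 and 0.462 (0.454 to 0.471) in the control. Per microRNA sense count, a scaling added after the data were seen, all 3 turned to the other side of 1, at 1.38 in susi-2, 1.29 in susi-3 and 1.57 in the control. At least 2-fold higher in antisense were 10 of 10 copies in susi-2 (35.6% of all genes), 4 of 9 in susi-3 (rrn-4.15 and the 3 exchanged copies; 16.5% of all genes) and 0 of 9 in the control (14.2%), with 0 of 9 at least 2-fold lower in the control, where 57.8% of all genes were. The copies called in susi-2 include rrn-4.16, which entered through its 42 counts in the IP, against 1 in total small RNA. Its call was thus set by its entry. The antisense values depended on the scaling. With TMM the ratio was 5.62 in susi-3, where 9 of 9 copies and 30.2% of all genes passed, and 2.99 in the control, where 8 of 9 copies and 29.9% of all genes passed. Taken per microRNA sense count it was 609.7 in susi-2, 12.97 in susi-3 and 2.62 in the control. In sense counts 8 of 9, 9 of 9 and 8 of 9 copies were at least 2-fold lower in susi-2, susi-3 and control, beside 25.0%, 24.0% and 18.4% of all genes, and the exception in susi-2 and in the control was rrn-4.15.

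The levels can be put in order by the share of the 7 copies. For antisense counts the order was the susi-2 IP, the susi-3 IP, susi-2 total, susi-3 total, control total and control IP. The intervals of susi-2 total and susi-3 total overlapped, as did those of control total and control IP, while the other neighbours were apart. For sense counts the order was susi-2 total, susi-3 total, control total, control IP (0.165%), the susi-2 IP (0.14%) and the susi-3 IP (0.114%), with no overlap of intervals. Both orders hold for shares of all counts only. Per microRNA sense count, sense 5S was higher in the IP than in total small RNA of each genotype (1.38 in susi-2, 1.29 in susi-3, 1.57 in the control). On that scale antisense 5S in the control IP was 2.62 times that in control total.

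Directly compared, susi-2 had 54.1-fold the antisense share of susi-3 in the IP libraries (49.3 to 59.4) and 1.1-fold in total small RNA (0.927 to 1.31), where the interval includes 1. The 10 copies oriented to the RNA gave 52.0 (49.0 to 55.3) in the IP libraries and 1.13 (0.993 to 1.28) in total small RNA. In total small RNA the interval lay above 1 for the 6 other copies, 1.21 (1.02 to 1.44), for all 16 copies, 1.16 (1.05 to 1.28), and per microRNA sense count, 1.32 (1.115 to 1.573). The IP ratio per microRNA sense count was 62.3. At least 2-fold higher in susi-2 than in susi-3 were 10 of 10 copies in the IP libraries (41.4% of all genes) and 0 of 9 in total small RNA (3.34%). In the IP libraries the call of rrn-4.16 was again set by its entry, with 42 counts in susi-2 and 0 in susi-3. The comparisons of susi-2 with susi-3 share the mutant libraries with those above and add no new libraries.

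The other nuclear rRNAs, all cut from the precursor, give the scale for these values. In the IP libraries the susi-2 ratio of antisense shares for 5S, 323, lay below that of 5.8S (1164, 633 to 2429) and above that of 18S (64.5, 60.6 to 68.7). The ratio of 26S was 269, which lies within the 5S interval. In susi-3 the 5S ratio of 5.98 lay below that of 5.8S (15.3, 8.05 to 32.6), and its interval included the ratios of 18S (6.12) and 26S (6.48). Both 5.8S ratios in the IP libraries rest on only 10 antisense counts in the control IP. In total small RNA the 5S ratio of 2.69 in susi-2 was near that of 18S, 2.62 (2.06 to 3.34), and below that of 26S, 5.54 (4.79 to 6.42). The susi-2 ratio of 5.8S was 3.97 (2.83 to 5.68), an interval that overlaps that of 5S. In susi-3 the 5S ratio of 2.45 lay below that of 18S, 4.86 (3.89 to 6.11), and its interval included those of 26S, 2.01, and 5.8S, 2.31 (1.59 to 3.40). The sense ratio of 5S in total small RNA was above those of the other rRNAs: it was 1.85 in susi-2, where the others lay between 1.00 (26S) and 1.42 (18S), and 1.69 in susi-3, where they lay between 0.882 (26S) and 1.24 (5.8S).

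**Figure D4:**
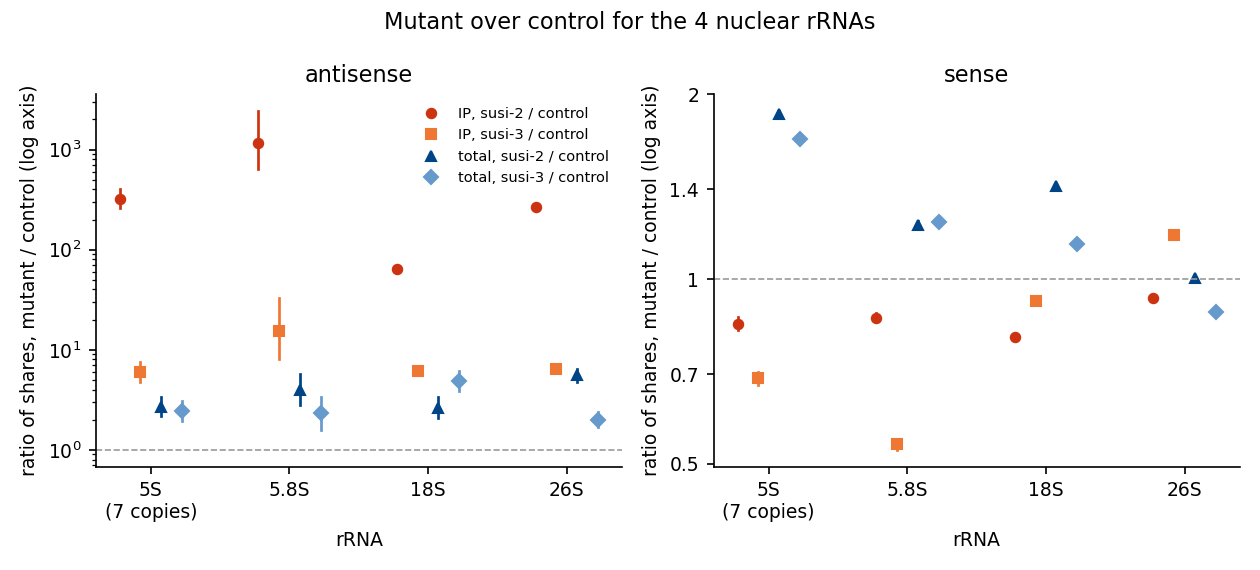
Mutant over control ratios of library shares for 5S (7 copies), 5.8S, 18S and 26S, antisense on the left and sense on the right, with exact conditional 95% intervals on log axes (the dashed line is 1). Antisense ratios of 5S are 323 (susi-2) and 5.98 (susi-3) in the IP libraries and 2.69 (susi-2) and 2.45 (susi-3) in total libraries, and its sense ratios in total small RNA, 1.85 and 1.69, are the highest of the 4 rRNAs.

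How much of the rRNA signal 5S made up differed between the fractions. With all 16 copies oriented to the RNA, 5S held 8.98% (8.92 to 9.04), 6.06% (5.76 to 6.36) and 7.29% (6.55 to 8.09) of antisense counts on the nuclear rRNAs in the IP libraries of susi-2, susi-3 and control. In the total libraries it held 34.8% (32.9 to 36.7), 42.8% (40.4 to 45.2) and 47.2% (43.4 to 51.0). Of sense counts on the same genes it held 0.842%, 0.569% and 0.879% in the IP libraries and 5.86%, 6.24% and 3.50% in the total libraries. If reads shared by copies were counted at each copy, these parts of 5S are too large, and the placement rule is not known. The antisense part of a gene's own counts in the susi-2 IP was higher for 5S (65.2% over the 7 copies) than for 5.8S (31.9%), 26S (16.6%) and 18S (7.39%).

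The SL1 genes that alternate with 5S in the array carried few antisense counts in the IP libraries. All 12 together had 21, 4 and 11 antisense counts in the IP libraries of susi-2, susi-3 and control, where the 5 array members of 5S had 19810, 378 and 71. Their antisense ratio in the IP libraries was 2.25 (1.04 to 5.17) in susi-2 and 0.411 (0.0955 to 1.39) in susi-3. In total small RNA they had 26 antisense counts in susi-2, 193 in susi-3 and 33 in the control, a ratio of 0.791 (0.454 to 1.36) and 6.25 (4.3 to 9.33). Their sense ratios in total small RNA were 0.653 (0.627 to 0.679) in susi-2 and 0.666 (0.640 to 0.693) in susi-3, on the other side of 1 from those of 5S. In the IP libraries their sense ratio was 1.29 (1.19 to 1.4) in susi-2 and 0.729 (0.664 to 0.801) in susi-3, the second on the same side of 1 as that of 5S. Their sense share in the IP over that in total small RNA was below 1 in all 3 genotypes, as for 5S, at 0.349 in susi-2, 0.192 in susi-3 and 0.176 in the control.

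A short list of 5S partners and other RNA polymerase III transcripts was read beside the members. It holds rpl-5, rpl-11.1 and rpl-11.2, for the ribosomal proteins that bind 5S, rop-1, for the Ro protein, which binds faulty 5S rRNA, rpr-1 and mrpr-1, the RNAs of RNase P and RNase MRP, and yrn-1, the Y RNA that Ro carries. In antisense, 6 of 7 passed the 2-fold rule upward in the susi-2 IP (all but yrn-1), beside 38.0% of all genes. The median log2 ratio was 1.78, against 0.79 over all genes. With TMM scaling only 8.30% of all genes passed there, and the list was not called on that scale. In the susi-3 IP it was 0 of 5, beside 8.24%, with a median of 0.14, against -0.21. In total small RNA it was 2 of 7 in susi-2 (rpr-1 and mrpr-1), beside 3.55% of all genes, and 2 of 7 in susi-3 (mrpr-1 and yrn-1), beside 5.17%. In susi-2 rpl-11.2 was at least 2-fold lower, as were 20.4% of all genes. The antisense counts of yrn-1 were 835, 330 and 544 in the IP libraries of susi-2, susi-3 and control, and those of rpr-1 were 2202, 314 and 356 in the total libraries. The sense counts of rpl-5 were 5491 in susi-2 total, 2532 in susi-3 total and 1940 in control total, and 3 of 7 genes of the list, all of them rpl genes, were at least 2-fold higher there in susi-2, beside 13.3% of all genes. None of 7 was in susi-3, beside 9.16%.

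A list of 15 genes of ribosomal and nuclear siRNA pathways covered the nuclear Argonautes and their partners (nrde-1 to nrde-4, hrde-1), the RNA-dependent RNA polymerases (rrf-1, rrf-2, rrf-3, ego-1), the amplification factor mut-16, the exonuclease genes disl-2, eri-1 and crn-3, and rrp-8 and riok-1. In antisense, 11 of 15 passed the same rule in the susi-2 IP, beside 38.0% of all genes, with a median log2 ratio of 1.26, against 0.79 over all genes. This list too was not called with TMM scaling, where 8.30% of all genes passed. In the susi-3 IP 1 of 14, crn-3, passed, beside 8.24%, with a median of -0.60, against -0.21, and hrde-1 was at least 2-fold lower, as were 13.2% of all genes. In total small RNA none of 15 was at least 2-fold higher in susi-2, beside 3.55% of all genes, or in susi-3, beside 5.17%. In susi-2 nrde-3 and rrp-8, 2 of 15, were at least 2-fold lower, a share below the 20.4% of all genes. The gene nrde-3 had 1114, 2274 and 3292 antisense counts in the total libraries of susi-2, susi-3 and control. Its sense counts were 35725, 40741 and 55056 in the IP libraries against 1146, 571 and 442 in the total libraries. The part of these differences in the 5S values was not tested.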

How the data were processed

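Whole L3 larvae gave total small RNA and RNA released from an anti-FLAG IP of tagged NRDE-3. Per the labels' protocols, RNA was treated with phosphatase, then with polynucleotide kinase and 1 mM ATP, and 17 to 30 nt inserts were sequenced. Per the file headers, each of the 6 deposited tables holds raw sense and antisense counts per annotated feature. Bowtie2 is named in the submitters' processing notes. Its settings, the genome build and the annotation are not stated in these sources. The 56377 features were summed to 45510 genes, 5 blank cells were read as 0, and 3 features naming no gene (at most 122 counts per library) were left out.

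Shares are of all counts of a library. Percents of counts have Clopper-Pearson intervals, single copies Poisson intervals and ratios exact conditional intervals. For calls, 1 CPM was added to each value, genes needed 20 counts over both libraries of a comparison, and a log2 ratio of 1 or more was called at least 2-fold higher. These calls are no test. TMM came from edgeR 4.0.16, the rest from SciPy 1.17.1, and the calculations were tested on simulated data. TMM used the antisense columns as deposited, with their totals as library sizes, so TMM ratios are not ratios of shares of all counts. The sums use 7 copies, and alternatives use 10, 16 or 1 copy, other scalings, filters and pseudocounts. The members and lists were chosen with earlier results of these data known.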

Additional observations from a re-analysis of the deposited data

Results flagged for a closer look

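Sense counts on the 7 copies moved in opposite directions in the 2 fractions, and the difference was not tested, since each group has 1 library. In susi-2 the ratio to control was 0.846 in the IP libraries and 1.85 in total small RNA. In susi-3 it was 0.689 in the IP libraries and 1.69 in total small RNA. Both IP ratios rest on the scaling: per microRNA sense count they were 1.74 in susi-2 and 1.23 in susi-3.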

How the results depend on the processing

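Of 110 alternatives, 56 gave a ratio or percent within the main interval or a count within 1.5 times the main one, and 46 moved. The other 8 changed direction from a main interval that excluded 1. Crossings of 1 from an interval that included it are among those that moved. These were the control antisense IP over total ratios of 1.097 (10 copies), 1.13 (rrn-4.1), 2.62 (per microRNA sense count) and 2.99 (TMM), against 0.773. Of the 110, 105 were planned and 5 were added after the data were seen. With 1 library per group no replicate was left out. For the same reason no paired analysis was possible. Counting error, and how reads shared by copies were placed, limit all values, and copies with under 20 counts set no direction.

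With all 10 copies in the columns as deposited, the antisense ratio to control was 1.99 for susi-2 and 1.85 for susi-3 in total small RNA, and 3.27 for susi-2 and 0.919 for susi-3 in the IP libraries. The IP over total ratio was then 0.716 in susi-2, 0.217 in susi-3 and 0.437 in the control. With the 10 copies oriented to the RNA it was 111 in susi-2, 2.40 in susi-3 and 1.097 in the control, and 2.22 in susi-3 with all 16. Sense ratios of the 10 copies were 1.91 (susi-2) and 1.76 (susi-3) in total small RNA and 0.907 (susi-2) and 0.769 (susi-3) in the IP libraries, and their antisense percents in the IP libraries were 69.9 in susi-2, 4.996 in susi-3 and 0.761 in the control.

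With rrn-4.1 alone the antisense ratios in total small RNA were 3.48 (susi-2) and 3.29 (susi-3), the IP over total ratio of the control was 1.13, and the sense ratios were 1.72 in susi-3 total, 0.818 in the susi-2 IP and 0.721 in the susi-3 IP. Its antisense percents were 63.3 in the susi-2 IP, and 0.327 in susi-2, 0.338 in susi-3 and 0.177 in the control in total libraries.

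Scaling by TMM gave antisense ratios of 4.25 (susi-2) and 3.71 (susi-3) in total small RNA and 146 in the susi-2 IP, and IP over total ratios of 81.7 (susi-2), 5.62 (susi-3) and 2.99 (control). Per microRNA sense count, the antisense ratio was 665 (susi-2) and 10.7 (susi-3) in the IP libraries, and IP over total was 609.7 in susi-2, 12.97 in susi-3 and 2.62 in the control. Between susi-2 and susi-3 it was 62.3 in the IP libraries and 1.32 in total small RNA. The sense ratios on this scale were 1.74 (susi-2) and 1.23 (susi-3) in the IP libraries, on the other side of 1, and 1.97 (susi-2) and 1.49 (susi-3) in total small RNA. The sense IP over total ratios, added after the data were seen, also turned, to 1.38 in susi-2, 1.29 in susi-3 and 1.57 in the control. The cause of these shifts was not tested.

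Copies called at least 2-fold higher in antisense numbered 7 with a pseudocount of 0.1 CPM (7.88% of all genes) and 8 with TMM (10.9%), against 4, for susi-3 over control in total small RNA. For IP over total in susi-3 they numbered 7 with that pseudocount (19.2%) and 9 with TMM (30.2%), against 4. In the control they numbered 1 (16.6%) and 8 (29.9%), against 0. For susi-2 over control in total small RNA they numbered 7 (5.64%) and 9 (8.75%), against 6. With at least 50 counts required, 9 copies, against 10, were called in the susi-2 IP over control and over total small RNA.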
